A study of Mus musculus with 9 samples.

Results

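Heat shock proteins and their J-domain co-chaperones were followed across RNA-seq libraries of mouse brain, from controls, from mice whose middle cerebral artery had been occluded (MCAO, used to model stroke) and from MCAO mice given hypidone hydrochloride. The genes were all rows of the count table whose symbol starts with Hspa, Hspb, Hspd, Hspe, Hsph, Hsp90, Dnaja, Dnajb or Dnajc, other than Hspbp1 and Hspbap1. These were 70 of 18138 genes, 27 in the heat shock protein families and 43 in the J-domain families. A test was possible for 65 of them, 26 heat shock protein and 39 J-domain genes. The other 5, Dnajb7, Dnajb13, Dnajc5b, Dnajc22 and Hspb9, had too few reads, at most 62 over all libraries together.

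Each group had 3 libraries, named here by group and by the number in the sample title: control 4, 5 and 6, MCAO 4, 5 and 6, and hypidone 2, 7 and 8. The controls carry no other treatment in the labels, the second group had MCAO surgery, and the third had MCAO surgery followed by hypidone hydrochloride at 5 mg/kg for 7 days. Hypidone, also known as YL-0919, is a serotonin reuptake inhibitor that also acts on a serotonin receptor. Strain, age, brain region, hemisphere, time after surgery, sham surgery and vehicle are not stated in the sources used here.

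HSP70 proteins bind unfolded stretches of other proteins and release them in a cycle driven by ATP. J-domain proteins deliver the unfolded substrate and start ATP hydrolysis, and HSP110 proteins exchange the nucleotide to end the cycle. HSP90 works further along the same route on kinases and steroid receptors, small heat shock proteins hold aggregating proteins without ATP, and the heat shock factor HSF1 drives transcription of many of these genes under stress. In neurons, HSP70 and its partners also uncoat clathrin vesicles and keep synaptic vesicle proteins folded.

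Library totals lay between 32075682 and 37325027 gene counts. The heat shock and J-domain genes together held 1.02% to 1.09% of the counts in controls, 0.908% to 0.971% in MCAO and 1.0% to 1.08% in the hypidone group. The MCAO libraries varied most, with a biological coefficient of variation of 41.4% against 29.4% in controls and 14.5% in the hypidone group. On the first principal component, which held 47.3% of the variance, MCAO 4 stood at 11, near the other groups, and MCAO 5 and MCAO 6 at 103.1 and 64.4. The summed level of 8 neuron markers was 11280, 6943 and 11210 CPM (read counts brought to equal library size) in controls 4, 5 and 6. It was 9247, 4750 and 6419 CPM in MCAO 4, 5 and 6 and 9587 to 11000 CPM in the hypidone group. Only through control 5 did the control and MCAO ranges overlap. No marker of the 10 lists used was at 0 throughout a group. Control 5 stood apart from the other controls, with 900 CPM over the hippocampal neuron list against 350 and 434 CPM, and 217 CPM over the choroid plexus and ependyma list against 6.73 and 8.94 CPM. Nothing in the labels states that each library is a different animal, so the p-values cover only the spread between libraries, part or all of which could be technical.

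With MCAO, 6 of the 65 tested genes were higher than in controls and 10 were lower, at an adjusted p under 0.05. That is 9.23% higher, where 10.6% of all 14756 tested genes were higher, and 15.4% lower, where 9.81% of all genes were. The 6 were the small heat shock protein genes Hspb1, Hspb6 and Hspb8, the HSP70 gene Hspa1l, and the J-domain genes Dnajc3 and Dnajb4. The 10 were Hsph1, Hspa4 and Hspa12a among the HSP70 and HSP110 genes, and Dnaja3, Dnaja4, Dnajb2, Dnajb3, Dnajb5, Dnajc15 and Dnajc27. The median log2 fold change was -0.07 over the 65 genes and 0.01 over all genes, and 28 of the 65 lay above 0. Leaving out single libraries moved these counts: 1 to 8 genes were higher, with 1 left without control 6, 2 without MCAO 6 or hypidone 8, and 3 without control 4, hypidone 2 or hypidone 7, and 6 were lower without control 4 or MCAO 6. A fit of the control and MCAO libraries alone called 0 higher and 4 lower, namely Hsph1, Dnajb5, Dnajb2 and Dnaja4. That fit has fewer libraries to estimate the spread and lacks the hypidone group, whose spread was the smallest. The share of all genes called in these refits was not counted, so their counts cannot be set against it. The cause of the lower counts was not tested.

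In the hypidone group, 8 genes were higher than in MCAO, or 12.3% against 8.23% of all genes, and 4 were lower, or 6.15% against 8.28%. The 8 were Hsph1, Hspa4, Dnaja3, Dnaja4, Dnajb2, Dnajb5, Dnajc15 and Dnajc27, and the 4 were Hspb6, Hspb8, Dnajc3 and Dnajb12. The median log2 fold change was -0.02, against -0.04 over all genes. Without MCAO 6 the counts were 3 higher and 0 lower. They were 4 and 0 without hypidone 2, 3 and 0 without hypidone 7, and 4 and 0 without hypidone 8. The number lower was 2 without control 4 or control 6 and 7 without MCAO 5. For these fits, too, the share of all genes called was not counted. Both comparisons use the same MCAO libraries, so the opposite signs of 11 genes called in both are no independent result.

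**Figure D1:**
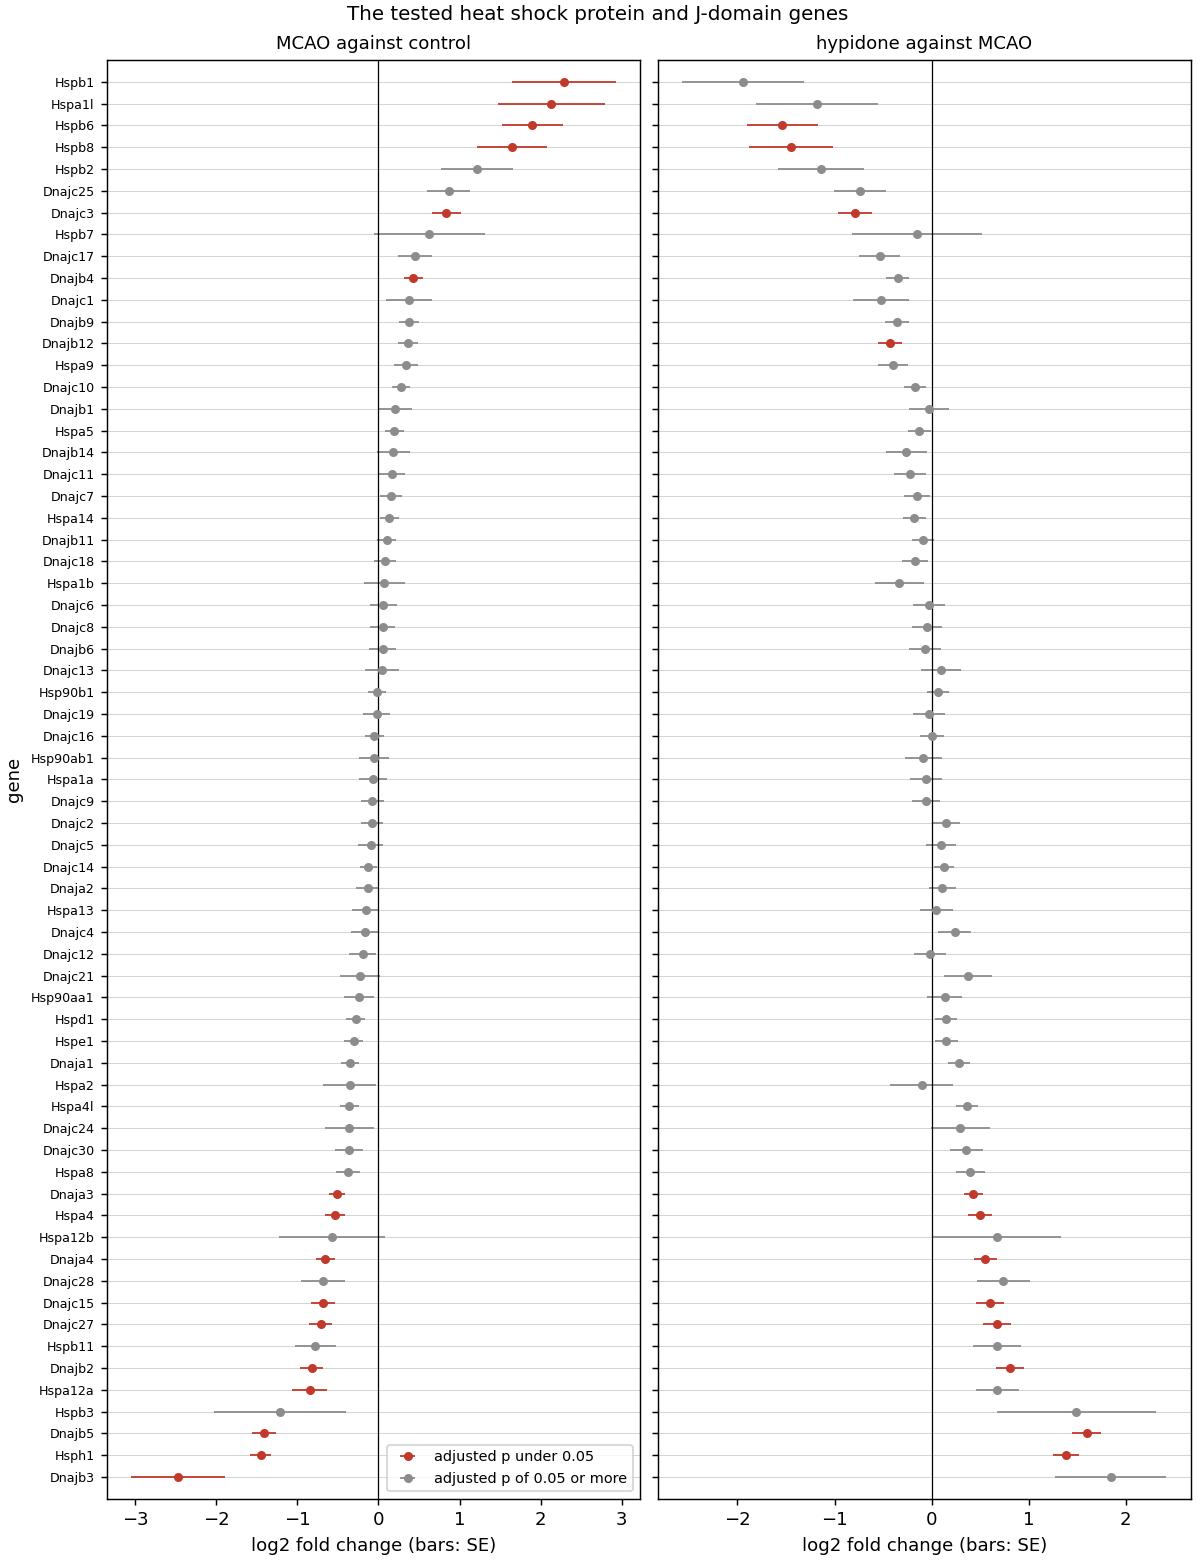
Log2 fold changes of the 65 tested genes, ordered by MCAO against control, in that comparison (left) and in hypidone against MCAO (right). Points are edgeR estimates, bars are standard errors, and red marks an adjusted p under 0.05; Hsph1 and Dnajb5 lie farthest from 0 among the red points with short bars, and the red small heat shock protein genes have wide bars.

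Hsph1 encodes the cytosolic HSP110 that exchanges nucleotide on HSP70. It lies at chr5:149614287-149636376 on the minus strand (GENCODE M21, GRCm38). Its level was 345, 358 and 365 CPM in controls 4, 5 and 6, 145, 133 and 111 CPM in MCAO 4, 5 and 6, and 372, 313 and 334 CPM in hypidone 2, 7 and 8. All MCAO libraries stood far below every other library, and control and hypidone libraries overlapped. The log2 fold change was -1.46 ± 0.14 (SE) with MCAO (adjusted p = 0.00158) and 1.39 ± 0.13 for hypidone against MCAO (adjusted p = 0.00183). Both calls were kept whichever of the 9 libraries was left out. In bulk tissue, fewer cells of a type and less RNA per cell cannot be told apart for any of these genes.

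The HSP110 relative Hspa4 was at 257, 284 and 267 CPM in controls, 211, 181 and 167 CPM in MCAO and 281, 249 and 256 CPM in the hypidone group. Its MCAO libraries were again the lowest 3, at a smaller distance. The log2 fold changes were -0.53 ± 0.12 (adjusted p = 0.0196) and 0.49 ± 0.12 (adjusted p = 0.0283). The first call was lost without control 4, control 6 or MCAO 6, and the second without control 6, MCAO 6, hypidone 2, hypidone 7 or hypidone 8, at adjusted p up to 0.118. Its close paralogue Hspa4l had log2 fold changes of -0.36 ± 0.12 (adjusted p = 0.0561) and 0.36 ± 0.12 (adjusted p = 0.0600).

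Hspa8 encodes the constitutive HSP70 and had the highest level per gene length of all members, a mean of 888 FPKM (fragments scaled by gene length and library size) over all libraries. It was at 1960.1, 1992 and 2084 CPM in controls, 1603, 1495 and 1562 CPM in MCAO and 2210.3, 1958 and 1983 CPM in the hypidone group. The MCAO range did not overlap either of the others, but the change missed the threshold at -0.37 ± 0.15 (adjusted p = 0.0985) and 0.40 ± 0.15 (adjusted p = 0.0879). Of its transcript windows of 50 bases, 39.4% occur in other annotated genes, mostly pseudogenes, so the count depends on how shared reads were assigned.

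The stress-inducible HSP70 genes did not pass the test. Hspa1a was at 9.90, 8.50 and 9.50 CPM in controls, 8.39, 8.26 and 9.97 CPM in MCAO and 8.00, 9.12 and 8.46 CPM in the hypidone group, with all 3 groups overlapping. Its log2 fold change with MCAO was -0.07 ± 0.17 (adjusted p = 0.801), and that of its near-identical neighbour Hspa1b was 0.07 ± 0.25 (adjusted p = 0.859). The 2 genes lie on chromosome 17 and share 66.3% of the windows of Hspa1a and 62.3% of those of Hspa1b with each other or other genes, so reads could be split between them. Hspa1l, next to them on the opposite strand and best known from the testis, was at 0.256, 0.380 and 0.0901 CPM in controls, 0.881, 0.651 and 1.70 CPM in MCAO and 0.749, 0.295 and 0.381 CPM in the hypidone group. Its log2 fold change of 2.13 ± 0.66 with MCAO (adjusted p = 0.0495) was lost without control 4, control 6, MCAO 6 or any hypidone library, with DESeq2 size factors (adjusted p = 0.0501), without a filter on low counts (0.0606) and with limma on FPKM (0.0557). The antisense gene Gm10501 overlaps 71.9% of its exonic bases, and without stated strand use in the counting their reads cannot be told apart.

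The HSP70 family also held the distant relatives Hspa12a and Hspa12b, Hspa2 and the ribosome-associated Hspa14, besides the organelle forms Hspa5, Hspa9 and Hspa13. Hspa12a was at 298, 359 and 301 CPM in controls, 249, 136 and 146 CPM in MCAO and 286, 272 and 292 CPM in the hypidone group. MCAO 4 stood just below the other groups and the other MCAO libraries far below. Its log2 fold change with MCAO was -0.85 ± 0.22 (adjusted p = 0.0278), lost in 7 of 9 fits without a library (all but those without MCAO 4 or hypidone 7; adjusted p up to 0.0961), and 0.68 ± 0.22 for hypidone against MCAO (adjusted p = 0.0626). Hspa2 was at 85.9 CPM in control 5 and between 33.0 and 46.4 CPM in all other libraries. The endothelial gene Hspa12b was at 8.91 CPM in MCAO 5 but 0.995 and 1.98 CPM in MCAO 4 and MCAO 6, against 4.73 to 7.60 CPM in the other groups. Neither Hspa2 nor Hspa12b nor Hspa14 passed the test in any comparison.

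**Figure D2:**
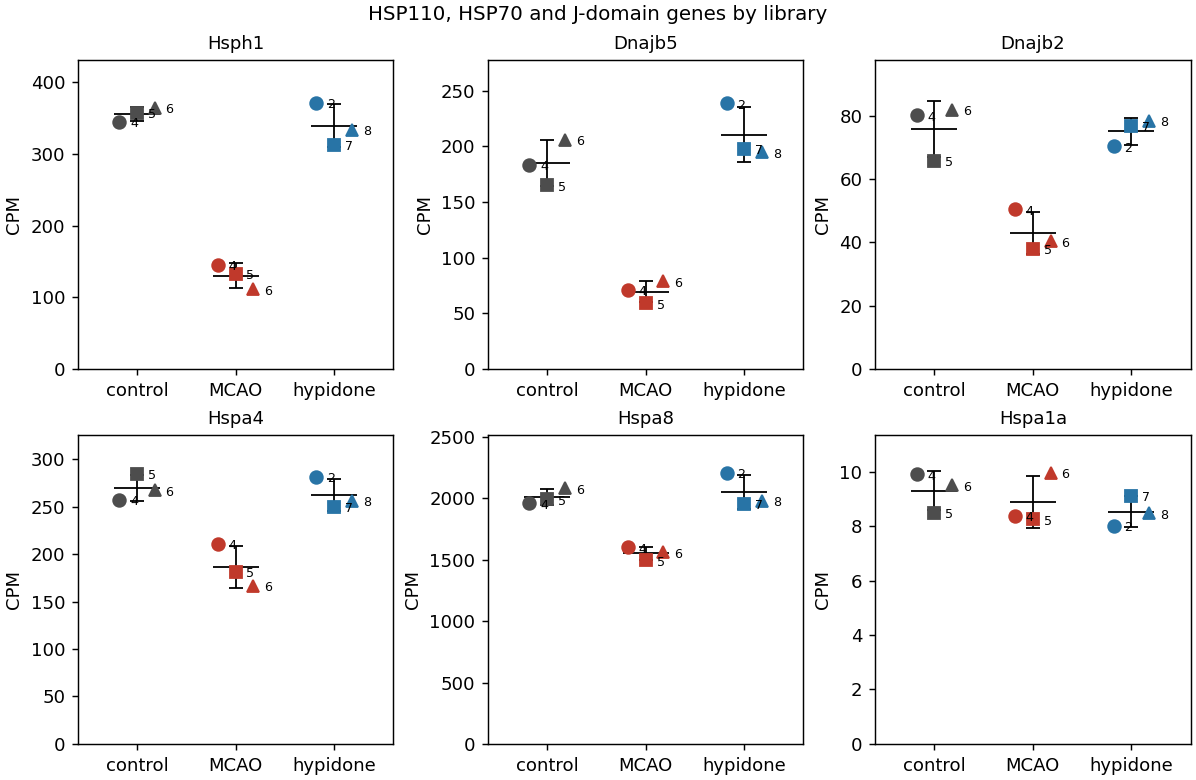
Level in CPM (vertical axis, from 0) of 6 genes of the HSP70 system in each library, with library numbers beside the points and the group mean ± SD (n = 3) in black. The MCAO libraries of Hsph1, Dnajb5 and Dnajb2 lie below all others, those of Hspa4 and Hspa8 by less, and the groups overlap for Hspa1a.

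Promoter sequences from RefSeq (GRCm38.p6; 250 bases before to 50 after a gene's start) were found for 56 of the 70 genes. They were searched on both strands for 3 alternating units of the heat shock element, GAANNTTCNNGAA. This 13-letter motif occurred in 179 of 27025 genes with a promoter, 0.662%, and in 4 of the 56: Hsph1, Hspd1, Hspe1 and Dnajb6. Of the 50 other chaperone genes with a promoter, Chordc1, an HSP90 partner described below, held it. The sequences of Hsph1 and Chordc1, which fell with MCAO, and of Hspe1, which did not pass the test, are shown to let the element be compared. They lie at chr5:149636266-149636565 (minus strand), chr9:18292017-18292316 (plus strand) and chr1:55087898-55088197 (plus strand), and capitals mark matches to the motif on either strand, overlapping ones joined.
Hsph1: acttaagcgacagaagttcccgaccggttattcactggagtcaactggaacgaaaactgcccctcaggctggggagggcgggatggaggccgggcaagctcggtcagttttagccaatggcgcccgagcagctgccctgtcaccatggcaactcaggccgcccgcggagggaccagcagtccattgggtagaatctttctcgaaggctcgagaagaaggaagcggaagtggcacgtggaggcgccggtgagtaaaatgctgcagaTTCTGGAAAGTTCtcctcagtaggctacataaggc
Chordc1: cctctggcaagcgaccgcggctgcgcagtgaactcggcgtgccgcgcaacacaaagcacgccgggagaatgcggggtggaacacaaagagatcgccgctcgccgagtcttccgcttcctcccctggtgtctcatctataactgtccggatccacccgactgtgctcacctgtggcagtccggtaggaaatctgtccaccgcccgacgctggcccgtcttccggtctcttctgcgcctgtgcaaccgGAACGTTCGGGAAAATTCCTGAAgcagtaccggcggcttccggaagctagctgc
Hspe1: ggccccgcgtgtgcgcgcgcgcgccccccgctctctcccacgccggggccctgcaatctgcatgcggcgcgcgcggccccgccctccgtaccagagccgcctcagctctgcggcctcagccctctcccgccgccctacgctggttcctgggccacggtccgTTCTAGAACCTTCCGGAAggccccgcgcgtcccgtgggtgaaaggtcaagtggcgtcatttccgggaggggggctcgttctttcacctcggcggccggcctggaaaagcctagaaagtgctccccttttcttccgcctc

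Hspd1 and Hspe1 are transcribed away from each other and their annotated genes overlap by 112 bases, so their windows overlap and the match in Hspd1 is that of Hspe1 on the other strand. Genes with the motif differed in their change with MCAO: Hsph1 and Chordc1 had log2 fold changes of -1.46 and -1.61, Hspd1 and Hspe1 -0.28 and -0.31, and Dnajb6 0.05. The shorter unit GAANNTTC, contained in the motif, occurred in 9.04% of all genes with a promoter and in 13 of the 56, including Hspa1a and Hspa1b and the small heat shock protein genes Hspb1, Hspb3, Hspb6 and Hspb8. The unit TTCNNGAA occurred in 9.60% of all genes and in 6 of the 56. A match describes these letters and shows no binding.

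Among the 9 cytosolic J-domain genes that serve HSP70, a grouping made from textbook locations after the values were known, 3 fell and 1 rose with MCAO, where 9.81% of all tested genes fell and 10.6% rose, and the median log2 fold change was -0.13 against 0.01 over all genes. Dnajb5 (chr4:42949814-42959425, plus strand), a relative of the classical HSP40, was at 183, 165 and 206 CPM in controls, 71.0, 59.0 and 78.6 CPM in MCAO and 239, 198 and 195 CPM in the hypidone group. Every MCAO library was far below every other one. Its log2 fold changes were -1.41 ± 0.15 (adjusted p = 0.00204) and 1.60 ± 0.15 (adjusted p = 0.00183).

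Dnajb2 (chr1:75236406-75245692, plus strand) encodes a J-domain protein abundant in neurons that also binds ubiquitin. It was at 80.1, 65.7 and 81.9 CPM in controls, 50.5, 37.9 and 40.3 CPM in MCAO and 70.3, 76.8 and 78.4 CPM in the hypidone group, again with the MCAO libraries lowest and apart. In log2 terms the changes were -0.82 ± 0.14 (adjusted p = 0.00736) and 0.81 ± 0.14 (adjusted p = 0.00952). For both Dnajb5 and Dnajb2 the calls were kept in all 9 fits that left out a library. Of the 8 neuron markers, 1 was lower with MCAO and 2, Tubb3 and Nefl, were higher for hypidone against MCAO, and the part of this list in the falls of Hsph1, Dnajb5 and Dnajb2 was not tested.

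Dnaja4 was at 64.6, 71.8 and 60.7 CPM in controls, 38.7, 46.0 and 40.4 CPM in MCAO and 62.2, 57.0 and 64.7 CPM in the hypidone group, without overlap between MCAO and the others. Its log2 fold changes were -0.66 ± 0.12 (adjusted p = 0.00841) and 0.56 ± 0.12 (adjusted p = 0.0165), the second lost without MCAO 6 or any hypidone library. The opposite-strand gene Wdr61 overlaps 44.1% of its exonic bases, so reads of the 2 may mix; Wdr61 itself had a log2 fold change of -0.24 ± 0.11 with MCAO (adjusted p = 0.158). Dnaja1 and Dnaja2, the HSP40 genes with the highest levels per length (75.9 and 85.4 FPKM), had log2 fold changes of -0.35 ± 0.11 (adjusted p = 0.0545) and -0.13 ± 0.14 (adjusted p = 0.522).

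Dnajb4 was the cytosolic J-domain gene that rose, from 72.6, 55.5 and 62.7 CPM in controls to 90.1, 78.1 and 89.0 CPM in MCAO, with 66.8 to 68.0 CPM in the hypidone group. The log2 fold change of 0.43 ± 0.12 (adjusted p = 0.0357) was lost in all fits without a library but those without control 4 or MCAO 5, at adjusted p up to 0.108, and without a filter on low counts (0.0514). The heat-inducible HSP40 gene Dnajb1 had 0.20 ± 0.21 (adjusted p = 0.514), and its MCAO libraries ran from 62.0 to 113 CPM, overlapping the 62.5 to 87.1 CPM of controls. Dnajb6 and Dnajc7 did not pass the test either. Dnajb3, known from spermatids and barely detected here, was at 0.811 to 1.44 CPM in controls, 0.0853 to 0.287 CPM in MCAO and 0.413 to 0.979 CPM in the hypidone group. Its log2 fold change of -2.47 ± 0.58 with MCAO (adjusted p = 0.0202) was lost without control 4 or MCAO 6.

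Dnajc27, which joins a Rab-like GTPase domain to a J domain, fell from 134, 155 and 144 CPM in controls to 106, 79.2 and 79.1 CPM in MCAO and stood at 151, 143 and 127 CPM in the hypidone group. Its log2 fold changes were -0.71 ± 0.14 (adjusted p = 0.0117) and 0.67 ± 0.14 (adjusted p = 0.0169), the second lost without MCAO 6, hypidone 2 or hypidone 7. The J-domain genes of vesicle traffic and splicing were among the most abundant and did not pass the test. The synaptic vesicle chaperone gene Dnajc5 (mean of 74.4 FPKM), the auxilin gene Dnajc6 (55.9 FPKM) and Dnajc8 (70.3 FPKM) had log2 fold changes of -0.10 ± 0.16, 0.06 ± 0.17 and 0.05 ± 0.15 with MCAO.

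Of 7 tested Hspb genes, which include the ciliary transport gene Hspb11, 3 rose with MCAO, where 10.6% of all tested genes did, and none fell. For hypidone against MCAO 2 of the 7 were lower, where 8.28% of all genes were. Hspb6 (chr7:30552178-30555443, plus strand) was at 9.33, 5.46 and 7.87 CPM in controls, 14.0, 28.3 and 42.2 CPM in MCAO and 9.82, 8.47 and 10.8 CPM in the hypidone group. Every MCAO library stood above every other, MCAO 4 by the least. The fitted log2 fold changes were 1.90 ± 0.37 (adjusted p = 0.0110) and -1.54 ± 0.37 (adjusted p = 0.0243), the second lost without MCAO 6 or any hypidone library, at adjusted p up to 0.0944.

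Hspb8 (chr5:116408491-116422864, minus strand), whose protein works with the co-chaperone BAG3 in selective autophagy, was at 19.4, 21.2 and 10.6 CPM in controls, 23.8, 81.7 and 55.0 CPM in MCAO and 13.9, 22.2 and 22.7 CPM in the hypidone group. MCAO 4 was barely above the highest control and hypidone libraries. Log2 fold changes were 1.65 ± 0.43 (adjusted p = 0.0299) and -1.45 ± 0.43 (adjusted p = 0.04996). The first was lost without control 4, control 6, MCAO 5, MCAO 6 or hypidone 8, and the second without those or hypidone 2 or hypidone 7. The second was also lost with scaling by library totals (adjusted p = 0.0554) and without a filter on low counts (adjusted p = 0.0510), and both were lost with limma on FPKM (adjusted p = 0.0580 and 0.0950).

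Hspb1 (chr5:135887919-135889563, plus strand), the mouse HSP25 gene, was at 5.37, 3.58 and 4.78 CPM in controls, 4.21, 35.5 and 27.3 CPM in MCAO and 3.74, 6.96 and 6.74 CPM in the hypidone group. MCAO 4 lay within the control range while MCAO 5 and MCAO 6 were the highest of all. The log2 fold change was 2.29 ± 0.64 with MCAO (adjusted p = 0.0356), lost in every fit without a library except that without MCAO 4, and -1.94 ± 0.63 for hypidone against MCAO (adjusted p = 0.0632). With limma on FPKM it had an adjusted p of 0.114 with MCAO. Of its transcript windows, 50.1% also occur in annotated pseudogenes.

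Summed over the 8 Hspb genes, the level was 34.2, 22.3 and 25.7 FPKM in controls, 30.0, 114.5 and 90.5 FPKM in MCAO and 26.5, 33.9 and 37.1 FPKM in the hypidone group. The sum was raised in 2 of the 3 MCAO libraries. The muscle-type genes Hspb2 and Hspb3 and the cardiac gene Hspb7 were low and not called, nor was Hspb11, a gene of ciliary transport, which had a log2 fold change of -0.78 ± 0.25 with MCAO (adjusted p = 0.0544). Hspb2 had 1.21 ± 0.44 (adjusted p = 0.0800), and it shares exons with the opposite-strand gene Cryab. That small heat shock protein gene, outside the name rule, had -0.21 ± 0.20 (adjusted p = 0.473). Hspb3 was at 0.272 CPM in control 5 against 6.87 and 5.44 CPM in controls 4 and 6, so that control 5 alone made the groups overlap with MCAO at 1.46 to 2.47 CPM. The authors' deposited table gave Hspb3 fold changes of 0.433 with MCAO (q-value 0.393) and 2.81 for hypidone against MCAO (q-value 0.000489).

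Some glial markers changed in the same comparisons as these genes. The summed level of 8 reactive astrocyte markers was 284, 804 and 208 CPM in controls, 754, 4790 and 4555 CPM in MCAO and 666, 439 and 409 CPM in the hypidone group, and 7 of the 8 were higher with MCAO and 6 lower for hypidone against MCAO. MCAO 4 lay within the range of controls only through control 5, and above controls 4 and 6. For Hspb1 it also lay within the control range, but for Hspb6 and Hspb8 it lay above every control. The 8 markers of activated microglia and macrophages summed to 50.6 to 84.2 CPM in controls, 82.2, 6490 and 534 CPM in MCAO and 69.2 to 93.9 CPM in the hypidone group, with 6 higher with MCAO and 4 lower in the second comparison. Of 7 endothelial markers 3 were higher with MCAO and 1 was lower in the second comparison, and of 7 general microglial markers 3 and 3. Of 7 general astrocyte markers 1 was higher with MCAO and then lower, Gjb6, with sums of 4916 to 5646 CPM in controls and 4929 to 6596 CPM in MCAO. The part of these cells in the small heat shock protein results was not tested.

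**Figure D3:**
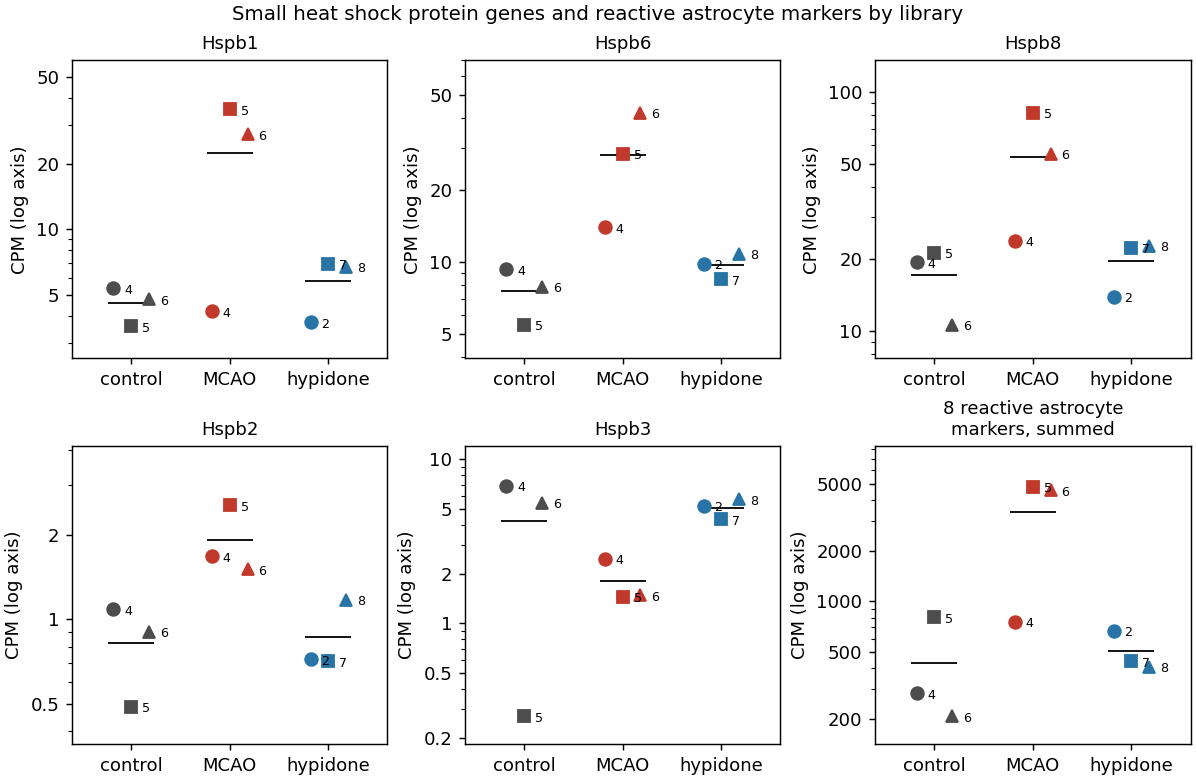
Levels in CPM (log axis) of 5 small heat shock protein genes and, at the lower right, the sum of 8 reactive astrocyte markers, in each library; lines are group means and numbers are library numbers. MCAO 5 and MCAO 6 are the highest libraries for Hspb1, Hspb6, Hspb8 and the marker sum, and control 5 is the lowest for Hspb3.

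The endoplasmic reticulum group held 11 genes by textbook location, also put together after the values were known. In it 1 gene rose with MCAO and none fell, a share of called genes close to the 10.6% of all genes that rose. Of the 11 log2 fold changes 9 lay above 0, where 50.8% of those of all genes did, and the median was 0.28 against 0.01 over all genes. For hypidone against MCAO, 2 of the 11 were lower, where 8.28% of all genes were, and none was higher, with a median of -0.26 against -0.04. Dnajc3 (chr14:118937976-118981697, plus strand), whose protein P58IPK restrains the translation-blocking kinase PERK, was at 46.1, 53.5 and 47.9 CPM in controls, 65.9, 110 and 87.4 CPM in MCAO and 47.0, 54.2 and 50.8 CPM in the hypidone group. Its MCAO libraries were the highest 3. The log2 fold changes were 0.84 ± 0.18 (adjusted p = 0.0139) and -0.79 ± 0.18 (adjusted p = 0.0194), the first lost without control 4 or control 6 and the second without MCAO 6 or any hypidone library.

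Dnajb12, a membrane-bound J-domain gene of the same compartment, was at 50.2, 55.1 and 58.1 CPM in controls, 76.5, 62.4 and 72.3 CPM in MCAO and 57.6, 52.4 and 47.2 CPM in the hypidone group. Its groups did not overlap with MCAO in either comparison, but only that of hypidone against MCAO passed, at -0.42 ± 0.12 (adjusted p = 0.0469), and it was lost in every fit without a library but those without control 5 or MCAO 5, and without a filter on low counts (adjusted p = 0.0662). With MCAO it had 0.37 ± 0.12 (adjusted p = 0.0625). The major luminal chaperone genes Hspa5 and Hsp90b1 did not pass the test. BiP (Hspa5) had a log2 fold change of 0.19 ± 0.12 with MCAO (adjusted p = 0.264), GRP94 (Hsp90b1) -0.02 ± 0.12 (adjusted p = 0.927) and ERdj4 (Dnajb9) 0.38 ± 0.12 (adjusted p = 0.0580), and Dnajb11, Dnajb14, Dnajc1, Dnajc10, Dnajc25 and Hspa13 did not pass either. The Dnajc3 promoter window at chr14:118937682-118937981 (plus strand) held a match, in capitals, to the endoplasmic reticulum stress element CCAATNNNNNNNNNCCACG, found in 37 of 27025 genes, 0.137%, and also in the windows of Hspa5 and Hsp90b1.
Dnajc3: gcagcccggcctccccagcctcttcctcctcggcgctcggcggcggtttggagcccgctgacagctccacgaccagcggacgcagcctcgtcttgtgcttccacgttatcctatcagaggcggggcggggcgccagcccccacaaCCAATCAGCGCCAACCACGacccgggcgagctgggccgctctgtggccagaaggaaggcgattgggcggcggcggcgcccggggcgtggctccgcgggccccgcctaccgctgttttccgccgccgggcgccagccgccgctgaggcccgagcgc

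Among 8 mitochondrial genes, 2 fell with MCAO, where 9.81% of all genes did, and none rose, and the same 2, Dnaja3 and Dnajc15, were higher for hypidone against MCAO, where 8.23% of all genes were. This group, too, was made after the values were known. With MCAO 2 of its 8 log2 fold changes lay above 0, where 50.8% of those of all genes did. The median was -0.29 against 0.01 over all genes. Dnaja3, the partner of mitochondrial HSP70, was at 69.1, 77.5 and 69.4 CPM in controls, 52.8, 51.4 and 47.3 CPM in MCAO and 70.9, 64.2 and 69.3 CPM in the hypidone group. MCAO lay below and apart. Its log2 changes came to -0.51 ± 0.10 (adjusted p = 0.0116) and 0.43 ± 0.10 (adjusted p = 0.0233), the second lost without MCAO 6 or any hypidone library. Dnajc15, of the inner membrane import machinery, had -0.69 ± 0.15 (adjusted p = 0.0148, lost without control 4 or MCAO 6) and 0.60 ± 0.15 (adjusted p = 0.0258, lost without MCAO 6, hypidone 7 or hypidone 8). Their HSP70 itself, Hspa9, was at 266 to 280 CPM in controls and 267 to 391 CPM in MCAO, with a log2 fold change of 0.34 ± 0.15 (adjusted p = 0.138). The chaperonin pair HSP60 (Hspd1) and HSP10 (Hspe1) had -0.28 ± 0.11 (adjusted p = 0.102) and -0.31 ± 0.12 (adjusted p = 0.0989). Of their transcript windows, 42.1% (Hspd1) and 22.8% (Hspe1) occur in other annotated genes, so their counts depend on how shared reads were assigned.

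Neither cytosolic HSP90 gene passed the test. Hsp90aa1, the inducible form, was at 1098, 992 and 959 CPM in controls, 1067, 691 and 817 CPM in MCAO and 1022, 860 and 944 CPM in the hypidone group, and the groups overlapped. Its log2 fold change with MCAO was -0.24 ± 0.18 (adjusted p = 0.363), and that of the constitutive Hsp90ab1 was -0.06 ± 0.19 (adjusted p = 0.849). For Hsp90aa1, 47.5% of the transcript windows occur in other annotated genes, with the same limit on its count. Of 16 HSP90 co-chaperone genes outside the name rule, 2 rose and 6 fell with MCAO, where 10.6% of all genes rose and 9.81% fell, and the median log2 fold change was -0.34. For hypidone against MCAO 3 of the 16 were higher and 2 lower, where 8.23% and 8.28% of all genes were, with a median of 0.31.

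Chordc1 was at 43.7, 46.1 and 46.7 CPM in controls, 9.90, 23.2 and 11.7 CPM in MCAO and 46.5, 39.5 and 40.3 CPM in the hypidone group, with the MCAO libraries well below all others. Its log2 fold changes were -1.61 ± 0.28 (adjusted p = 0.00826) and 1.49 ± 0.28 (adjusted p = 0.0120), the second lost without MCAO 6. Ppid, the cyclophilin 40 gene, had -0.97 ± 0.12 (adjusted p = 0.00347) and 0.78 ± 0.12 (adjusted p = 0.00653). Fkbp5, a glucocorticoid-induced immunophilin gene, was at 31.8, 73.1 and 27.3 CPM in controls, 183, 272 and 185 CPM in MCAO and 35.3, 32.05 and 39.6 CPM in the hypidone group. It was high in all 3 MCAO libraries, MCAO 4 included, with log2 fold changes of 2.27 ± 0.36 (adjusted p = 0.00619) and -2.58 ± 0.36 (adjusted p = 0.00551). The Ppid and Fkbp5 calls were kept in all 9 fits that left out a library.

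The other called partners were Cdc37, Ahsa2, Ptges3 and Tomm34, which fell with MCAO with log2 fold changes of -0.40 to -0.92, and Unc45b, a myosin chaperone gene at 0.625 to 3.65 CPM, which rose by 1.93 ± 0.51 (adjusted p = 0.0300). Of these, Ahsa2 was higher for hypidone against MCAO, at 0.81 ± 0.17 (adjusted p = 0.0170), and Unc45b lower, at -1.77 ± 0.51 (adjusted p = 0.0443). Each lost its MCAO call without at least 1 library: Tomm34 without control 6 or MCAO 6, Ahsa2 without those or control 4, and Cdc37, Ptges3 and Unc45b without any of 6 libraries. For hypidone against MCAO, Ahsa2 lost its call without MCAO 6, hypidone 7 or hypidone 8, and Unc45b without any library but control 5 or MCAO 4. When only the 2 groups compared were fitted, the MCAO calls of all 5 were lost, at adjusted p of 0.0727 (Ahsa2) to 0.0956 (Cdc37), and so was the second call of Unc45b (0.0741).

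Of 7 heat shock factor and regulator genes, 2 fell with MCAO (9.81% of all genes) and both were higher for hypidone against MCAO (8.23% of all genes), while the list's median was 0.14 and -0.17. Hsf1, which encodes the main heat shock transcription factor, was at 22.4, 25.0 and 30.0 CPM in controls, 18.7, 16.4 and 14.6 CPM in MCAO and 27.1, 25.9 and 24.8 CPM in the hypidone group. MCAO was lowest without overlap, with log2 fold changes of -0.64 ± 0.15 (adjusted p = 0.0212) and 0.65 ± 0.15 (adjusted p = 0.0230). The first was lost without control 6 or MCAO 6 and the second without MCAO 6 or any hypidone library. Hikeshi, the importer of HSP70 into the nucleus, had -1.04 ± 0.19 (adjusted p = 0.00963) and 0.96 ± 0.19 (adjusted p = 0.0147, lost without hypidone 7 or hypidone 8). In a fit of the control and MCAO libraries alone the fall of Hsf1 was not called (adjusted p = 0.0835).

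Of 14 HSP70 co-chaperones without a J domain, 2 rose and 1 fell with MCAO, where 10.6% and 9.81% of all genes did. Bag3, the partner of Hspb8, was at 8.62, 12.1 and 7.93 CPM in controls, 13.8, 31.1 and 21.1 CPM in MCAO and 7.89, 11.5 and 8.47 CPM in the hypidone group. MCAO 4 stood just above the highest control. The fitted log2 fold changes were 1.20 ± 0.31 (adjusted p = 0.0275) and -1.24 ± 0.31 (adjusted p = 0.0279), the first lost without control 4, control 6 or MCAO 6 and the second without MCAO 6 or any hypidone library. Sil1, which exchanges nucleotide on BiP, rose by 0.44 ± 0.13 (adjusted p = 0.0402) and Stip1, which links HSP70 to HSP90, fell with -0.56 ± 0.17 (adjusted p = 0.0421), each call lost without any of 8 libraries. Hyou1, another exchange factor for BiP, was called only in hypidone against MCAO, at 0.46 ± 0.13 (adjusted p = 0.0435), and lost without any of 6 libraries. That call was also lost with library totals (adjusted p = 0.0580), limma on FPKM (0.0662) and a fit of only the hypidone and MCAO libraries (0.05). With MCAO, Hyou1 had -0.41 ± 0.13 (adjusted p = 0.0522), and the MCAO and control libraries did not overlap. In a fit of the control and MCAO libraries alone the calls of Bag3 (adjusted p = 0.0808), Sil1 (0.105) and Stip1 (0.115) were lost.

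Of 7 other chaperone and protease genes tested, 1 rose and 3 fell with MCAO, where 10.6% and 9.81% of all genes did. The mitochondrial unfoldase gene Clpx rose with MCAO by 0.77 ± 0.12 (adjusted p = 0.00601) and was lower for hypidone against MCAO at -0.75 ± 0.12 (adjusted p = 0.00737), both kept in all 9 fits that left out a library. Trap1, the mitochondrial HSP90, and the disaggregase gene Clpb fell, with -0.62 ± 0.13 (adjusted p = 0.0139) and -0.53 ± 0.11 (adjusted p = 0.0135), and were higher in the second comparison, at 0.57 ± 0.13 and 0.52 ± 0.11. The protease gene Lonp1 fell with -0.38 (adjusted p = 0.0466). Without control 6 the falls of Trap1 and Clpb were not called, nor was that of Trap1 without MCAO 6, and Lonp1 was called in 1 of the 9 fits, that without MCAO 6. The Lonp1 call was also lost with DESeq2 size factors (adjusted p = 0.0519), library totals (0.0761) and no filter on low counts (0.0552). Limma voom (0.0563) and limma on FPKM (0.07045) did not call it either. In the second comparison Trap1 and Clpb lost their calls without MCAO 6 or any hypidone library. Of 3 J-domain genes under other names, the translocon gene Sec63 rose with 0.38 ± 0.11 (adjusted p = 0.0361) and was lower in the second comparison at -0.39 ± 0.11 (adjusted p = 0.0391), calls lost without any of 7 and any of 5 libraries. The MCAO calls of Trap1, Clpb, Lonp1 and Sec63 were also lost when only the control and MCAO libraries were fitted, at adjusted p of 0.0621 (Trap1) to 0.128 (Lonp1). None of 14 tested genes of the CCT chaperonin and prefoldin was called in either comparison.

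**Figure D4:**
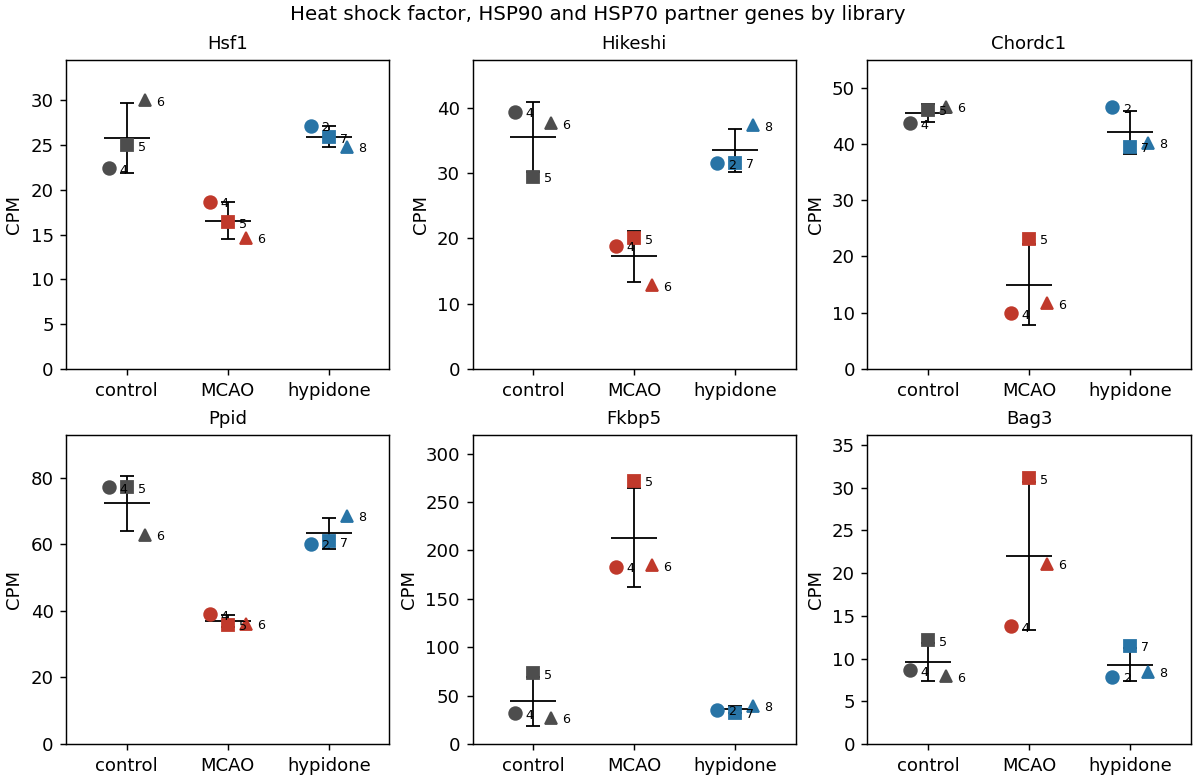
Level in CPM (vertical axis, from 0) of 6 partner genes in each library, with library numbers beside the points and the group mean ± SD (n = 3) in black. Hsf1, Hikeshi, Chordc1 and Ppid are lowest in the 3 MCAO libraries, and Fkbp5 and Bag3 are highest in them.

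Set against controls, the hypidone group had 0 genes called higher and 0 lower, both among the 65 and among all 14756 genes, or 0% of either. At an unadjusted p under 0.05 edgeR gave 131 genes in all, 0.888%, and 0 of the 65, whose smallest p was 0.181 for Hspa1l. DESeq2 called 1 gene, none of the 65, and limma voom and limma on FPKM called 0. The log2 fold changes of Hsph1 and Dnajb5 were -0.07 ± 0.13 and 0.19 ± 0.15, and those of Hspb1, Hspb6 and Hspb8 were 0.35 ± 0.62, 0.36 ± 0.36 and 0.20 ± 0.43. All these errors come from 1 fit over the 3 groups, so the spread of the MCAO libraries, the largest at 41.4%, enters them. With the wide errors of the small heat shock protein genes, differences too small for this fit to show remain possible.

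In the authors' deposited table, 14 of the 16 genes called here with MCAO and all 12 called for hypidone against MCAO had a q-value under 0.05, the exceptions being Dnajb4 and Hspa1l. The authors' deposited table gave 5 higher and 13 lower genes of the family with MCAO, and 11 higher and 8 lower for hypidone against MCAO. The share of all genes under that threshold in the authors' table was not counted, so these counts cannot be set against it. Fold changes of 0.365 for Hsph1 and 4.87 for Hspb1 with MCAO were listed in the authors' deposited table. Among genes not called here, its q-values were under 0.05 with MCAO for Hspa8 (0.0126), Dnaja1 (0.0387), Dnajc25 (0.0235) and Hspb11 (0.0324). For hypidone against MCAO such genes were Hspa8 (0.00584), Hspb1 (0.0141), Hspb3 (0.000489), Dnajb4 (0.0301), Dnajb9 (0.041), Dnajc25 (0.0375) and Hspa12a (0.0453).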

How the data were processed

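RNA-seq of mouse brain was used as deposited by the authors: read counts per gene, FPKM per gene, and their own table of fold changes (ratios) and q-values for each comparison. Per the labels, libraries were made with a universal RNA-seq kit from TRIzol-extracted RNA. The submitters' processing notes name mm10 and DESeq2, and the aligner, counter, annotation and use of strand are not stated in the sources used here. How reads shared by paralogues or overlapping genes were assigned can therefore change their counts. All 9 libraries differed by more than sampling noise.

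Counts were fitted with edgeR 4.0.16 (R 4.3.3): genes kept by filterByExpr, TMM scaling, and 1 quasi-likelihood fit over the 3 groups with 6 residual degrees of freedom. Two-sided F tests were adjusted by Benjamini-Hochberg over all 14756 tested genes, and called under 0.05. Standard errors were taken as the log2 fold change over the square root of F, and CPM uses TMM library sizes.

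The named genes are all tested heat shock protein genes, the called J-domain genes, the 5 J-domain genes with the highest FPKM, and called genes of 6 partner lists. Some others are named by value. Genes and lists were chosen with earlier results of these data known. Gene lists for 10 cell types were read as summed CPM and counts of calls: besides those in the report, oligodendrocyte markers had 1 of 7 lower with MCAO, choroid plexus 1 of 7, hippocampal 2 of 7, and erythrocyte markers 5 of 5 higher for hypidone against MCAO (71.3 to 187 CPM against 4.31 to 28.0 CPM). Positions are from GENCODE M21 and promoters from RefSeq.

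Alternatives were other scaling, filters and tools (DESeq2 1.42.0; limma 3.58.1 with voom, or on log2 of FPKM plus 1 as pseudocount), a fit restricted to the compared groups, a replicate block, and leaving out each library in turn.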

Additional observations from a re-analysis of the deposited data

How the results depend on the processing

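No log2 fold change of a called gene changed sign under the alternatives. The count of heat shock and J-domain genes higher with MCAO was 6, and became 10 with DESeq2, 13 with limma voom, and 0 when only the control and MCAO libraries were fitted. The 10 lower genes became 18 with limma voom and 4 when only those libraries were fitted. For hypidone against MCAO, the 8 higher genes became 15 with DESeq2 and 19 with limma voom. The 4 lower genes became 2 without a filter on low counts, 9 with DESeq2, 14 with limma voom, 7 with limma on FPKM, and 2 when only the hypidone and MCAO libraries were fitted. With MCAO, DESeq2 called 4462 and limma voom 7428 of all 14756 genes in either direction, and 24 and 31 of the 65. For hypidone against MCAO they called 4011 and 7631 of all genes, and 24 and 33 of the 65. Limma on FPKM called 2579 and 2303 of all genes in these comparisons, and 18 and 16 of the 65. Leaving out each library in turn gave 1 to 8 higher and 6 to 14 lower genes with MCAO, and 3 to 12 higher and 0 to 7 lower genes for hypidone against MCAO. The cause of these shifts was not tested. Apart from DESeq2, limma voom and limma on FPKM, the share of all genes called under the alternatives was not counted. Hypidone against control gave 0 in every setting. Of the 34 named calls with MCAO and 25 for hypidone against MCAO, DESeq2 size factors kept 32 and 25, library totals 33 and 23, no filter 29 and 21, limma on FPKM 29 and 22, and a fit of only the groups compared 9 and 20. The 9 were Hsph1, Dnajb5, Dnajb2, Dnaja4, Hikeshi, Chordc1, Ppid, Fkbp5 and Clpx.

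Control and MCAO libraries share the title numbers 4, 5 and 6. Same-numbered libraries deviated from their group means with correlations of 0.118, 0.123 and -0.042. Controls 4 and 5 each correlated best with the MCAO library of their own number, and control 6 with MCAO 4 (0.124). With 3 libraries a group, such correlations cannot decide whether the numbers pair the libraries. The fit with a replicate block called 0 of the heat shock and J-domain genes higher and 0 lower with MCAO. It kept 0 of the 34 named calls with MCAO, and the share of all genes called in it was not counted.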
